A study of Mus musculus with 59 samples.

Results

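The proneural and related basic helix-loop-helix (bHLH) transcription factor genes *Neurog1*, *Neurog2*, *Neurog3*, *Neurod1*, *Atoh1*, *Olig2* and *Olig3* were followed in mouse embryonic stem cells (ESCs) and in the embryoid bodies (EBs) made from them. They were chosen by gene symbol, and all 7 were found among the 24391 genes listed in every library. RNA-seq libraries came from 6 ESC lines carrying a Cre recombinase that 4-hydroxytamoxifen (4-OHT) activates, and each line gave control ESCs and EBs (without 4-OHT) and mutant ESCs and EBs (with 4-OHT). ESCs were grown with LIF and 3 inhibitors on embryonic fibroblast feeder cells, and EBs were formed for 2 days without these factors. There were 59 libraries: 4 control ESC and 5 in each other group for the Pcgf1 line, and 2 in each group of the other lines. The genotypes, control then mutant, were *Pcgf1* fl/fl and *Pcgf1* delta/delta in the Pcgf1 line. In the RING1 point mutant line, control cells already carried the *Ring1a* point mutation on both alleles together with a conditional *Ring1b* point mutant allele, and the mutant cells were *Ring1a* pm/pm and *Ring1b* pm/pm. In the Ring1A/B line, control cells were *Ring1a*-/- with *Ring1b* fl/fl, so that they lacked RING1A as well, and the mutant also lost *Ring1b*. The other lines were fl/fl (control) and delta/delta (mutant) for *Pcgf2* and *Pcgf4*, for *Pcgf3* and *Pcgf5*, or for *Pcgf6*.

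PRC1 is the Polycomb complex that places ubiquitin on histone H2A through its RING1A or RING1B subunit, and different PCGF proteins define its subtypes. Proneural bHLH factors pair with E proteins, bind E-box motifs and switch on neuronal, sensory or endocrine programs. Notch signaling, Id proteins and several, but not all, Hes proteins hold them in check. Many such genes are known Polycomb targets.

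For the 4 members on which the differences below turn, the 250 bases upstream of the annotated start are shown from RefSeq (build GRCm38.p6). This build is not the mm9 build that the files use. Capitals mark matches to CANNTG, the general E-box, which reads the same on both strands. The windows are chr10:62132840-62133089 on the plus strand, chr2:79456637-79456886 on the minus strand, chr16:91225300-91225549 on the plus strand and chr13:56252181-56252430 on the minus strand, each written 5′ to 3′ with the start site after its last base.
Neurog3: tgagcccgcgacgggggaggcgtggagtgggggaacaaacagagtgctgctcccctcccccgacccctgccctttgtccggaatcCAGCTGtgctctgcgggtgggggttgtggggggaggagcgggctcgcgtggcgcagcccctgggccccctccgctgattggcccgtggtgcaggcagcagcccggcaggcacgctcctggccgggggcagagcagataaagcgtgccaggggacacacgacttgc
Neurod1: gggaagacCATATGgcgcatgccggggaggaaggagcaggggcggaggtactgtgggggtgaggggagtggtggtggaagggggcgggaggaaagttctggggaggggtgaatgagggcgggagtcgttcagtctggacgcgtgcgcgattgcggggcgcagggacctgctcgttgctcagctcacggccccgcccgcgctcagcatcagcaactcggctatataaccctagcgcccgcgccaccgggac
Olig2: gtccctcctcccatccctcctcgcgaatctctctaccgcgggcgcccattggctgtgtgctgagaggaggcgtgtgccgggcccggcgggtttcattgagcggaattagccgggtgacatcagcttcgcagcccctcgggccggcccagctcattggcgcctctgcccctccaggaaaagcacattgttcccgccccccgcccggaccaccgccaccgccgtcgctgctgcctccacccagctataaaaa
Neurog1: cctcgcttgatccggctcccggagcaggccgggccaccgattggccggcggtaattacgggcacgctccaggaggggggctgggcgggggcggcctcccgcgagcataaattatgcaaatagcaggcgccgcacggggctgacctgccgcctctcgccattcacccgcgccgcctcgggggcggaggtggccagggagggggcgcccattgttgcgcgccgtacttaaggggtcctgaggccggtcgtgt
The windows of *Neurog3*, *Neurod1* and *Olig3* each held 1 E-box, a motif present in 66.2% of 32851 annotated promoter windows of this length. These letters did not occur in the *Olig2*, *Neurog1*, *Neurog2* and *Atoh1* windows. The windows printed above held 18, 22, 22 and 29 CG dinucleotides in that order, against a median of 6 over all windows. A count of at least 29, as at *Neurog1*, was found in 6.78% of them. All 7 members had an entry in that table, and *Neurog2*, *Atoh1* and *Olig3* held 8, 14 and 4 CG dinucleotides.

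In mm9 (annotation GENCODE vM1), *Neurog1* lies at chr13:56351866-56353524, *Neurog2* at chr3:127336054-127338549, *Neurog3* at chr10:61595838-61597511 and *Neurod1* at chr2:79292678-79296908. *Atoh1* lies at chr6:64679140-64681227, *Olig2* at chr16:91225795-91228922 and *Olig3* at chr10:19076366-19078412. Levels are given in TPM, transcript abundances that are scaled by length and sum to 1000000 in each library. Differences are on the log2(TPM + 0.1) scale with the standard error (SE), and a difference was called at a Benjamini-Hochberg adjusted p under 0.05 over all genes, from limma. Low levels are compressed by the added 0.1. Whether a lower level came from fewer expressing cells or from less RNA per cell cannot be told apart in these bulk libraries.

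For 21 of the 59 libraries, the name of the deposited file gave another condition than the sample label. All 21 were among the 32 libraries of the Ring1A/B line and of the lines for Pcgf2/4, Pcgf3/5 and Pcgf6. *Dnmt3b*, a marker of the early EB, ranged from 25.05 to 685 TPM in libraries of these lines labeled ESC and from 31.7 to 582 TPM in those labeled EB. Read by deposited name it ranged from 25.05 to 77.5 TPM in ESCs and from 194 to 685 TPM in EBs, without overlap. Groups were kept as labeled, so comparisons within these 4 lines concern the libraries labeled so. In the Pcgf1 and RING1 point mutant lines, labels and names agreed for all 27 libraries, and the main comparisons rest on these lines. *Dnmt3b* overlapped between the stages there, at 20.9 to 96.7 TPM in ESCs and 64.8 to 2344 TPM in EBs. The targeted gene *Pcgf1* ranged from 7.30 to 16.6 TPM in the 9 control libraries and from 0.627 to 2.77 TPM in the 10 mutant libraries. In the RING1 point mutant line, *Rnf2* (encoding RING1B) ranged from 54.5 to 85.8 TPM, and the transcript level of a point mutant does not check the labels.

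In the Pcgf1 line, *Neurog3* and *Neurod1* rose from ESC to EB in both genotypes. *Neurog3*, which starts endocrine differentiation in pancreas and gut, rose by 4.63 ± 0.58 (SE) in control cells and by 5.14 ± 0.55 in *Pcgf1*-KO cells. *Neurod1*, which acts downstream of neurogenins in neurons and endocrine cells, rose by 3.32 ± 0.66 and 2.72 ± 0.62. The sizes depend on the added 0.1, since ESC levels were near 0: with 1 added in its place the differences were 2.24 and 2.55 for *Neurog3* and 2.58 and 1.97 for *Neurod1*, all still called. *Olig2*, which specifies motor neuron and oligodendrocyte progenitors, rose with differentiation in the KO and was higher in KO than in control EBs.

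The individual libraries show these changes. *Neurog3* was 0.145, 0, 0 and 0.211 TPM in control ESCs 1 to 4 and 2.25, 4.14, 2.21, 6.95 and 7.22 TPM in control EBs 1 to 5. *Pcgf1*-KO ESCs had 0, 0, 0, 0.196 and 0.117 TPM, whereas KO EBs had 6.66, 9.24, 10.2, 2.17 and 2.27 TPM. Every EB library was above every ESC library, and 2 of the 4 control and 3 of the 5 KO ESC libraries were listed at 0. Both differences were called (adjusted p = 1.4e-05 and 2.61e-06, limma), and both were called in all alternatives tried.

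*Neurod1* was 0.448, 1.19, 2.05 and 1.14 TPM in control ESCs and 8.67, 20.7, 22.5, 8.11 and 6.47 TPM in control EBs. KO ESCs had 0.585, 0.371, 0.879, 1.33 and 1.16 TPM, whereas KO EBs had 6.17, 13.9, 20.6, 2.05 and 1.70 TPM. The stages did not overlap in either genotype, although KO EBs 4 and 5 were close to the highest ESC libraries. The adjusted p was 0.00107 in control and 0.00437 in KO cells (limma). Within replicates 4 and 5 alone, an alternative chosen after seeing the data, the KO difference was 0.55 (adjusted p = 0.0997).

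*Olig2* was 6.97, 12.4, 12.8 and 13.3 TPM in control ESCs and 9.93, 19.7, 20.01, 16.99 and 18.7 TPM in control EBs. KO ESCs had 15.3, 24.7, 23.8, 21.9 and 20.2 TPM, whereas KO EBs had 32.7, 62.0, 45.7, 51.2 and 46.5 TPM. KO EBs were above all other libraries, and replicate 1 was the lowest of each group. The EB-to-ESC difference was 1.16 ± 0.23 in KO cells (adjusted p = 0.0013) and 0.58 ± 0.24 in control cells (adjusted p = 0.0895, limma). Replicate numbers paired the libraries of this line, and blocking on the number gave a control difference of 0.57 (adjusted p = 2.67e-04).

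**Figure D1:**
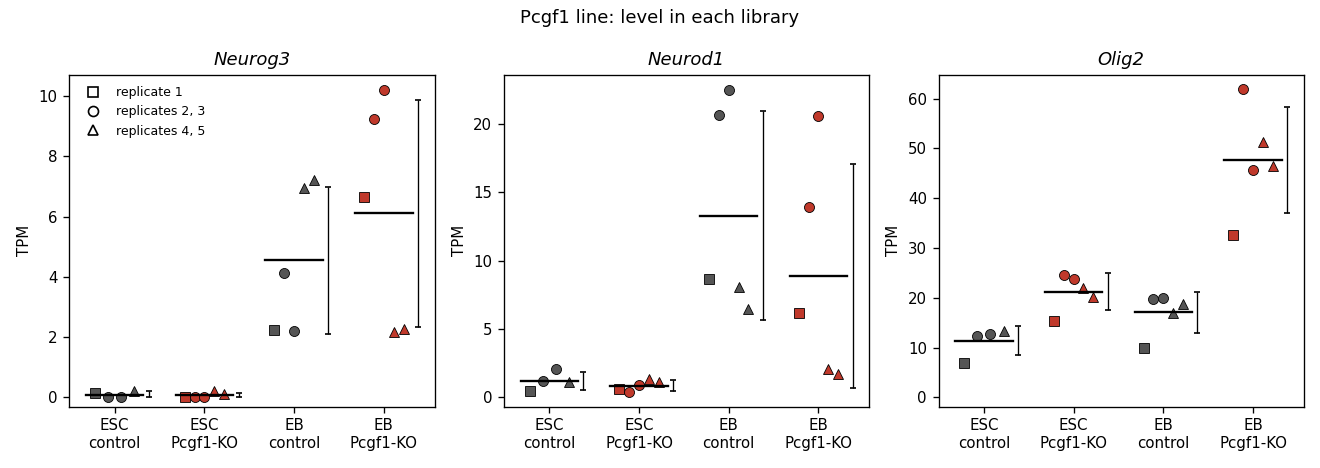
*Neurog3*, *Neurod1* and *Olig2* in each library of the Pcgf1 line, in TPM. Gray points are control, red points *Pcgf1*-KO, symbols the library series, horizontal lines group means and bars the SD; *Olig2* in KO EBs lies between 32.7 and 62.0 TPM, above the 9.93 to 20.01 TPM of control EBs.

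Among the 7 members, 2 were called between control EBs and ESCs, both higher, beside 24.9% of all genes in either direction and 11.5% higher. The stages did not overlap for these 2, as for 10.1% of all genes in this direction. In KO cells 3 were called, all higher, beside 18.3% in either direction and 8.13% higher. The stages did not overlap for these 3, as for 6.68% of all genes in this direction. The median difference of the members was 0.58 in control and 1.02 in KO cells, and that of all genes was -0.0045 in control cells and 0.00 in KO cells. *Neurog1*, a specifier of sensory neurons, had a control difference of 1.32 ± 0.67 (adjusted p = 0.174). *Neurog2* (a specifier of cortical and sensory neurons), *Atoh1* (hair cells and cerebellar granule neurons) and *Olig3* (dorsal neural tube progenitors) did not exceed 0.512, 0.683 and 1.06 TPM in any library of this line. ESC libraries also held feeder RNA: the summed level of 15 fibroblast markers was 1369 to 3954 TPM (control) and 1040 to 2684 TPM (KO) in ESCs. In EBs it was 233 to 506 TPM (control) and 245 to 806 TPM (KO). Their part in the stage differences was not tested.

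The question of the *Pcgf1* deletion is what loss of the PCGF1-containing variant PRC1 does to these genes at each stage. In EBs, *Olig2* was higher in the KO by 1.49 ± 0.23, from a mean of 17.1 ± 4.16 (SD, n = 5) to 47.6 ± 10.6 TPM (SD, n = 5), without overlap (adjusted p = 0.00233, limma). It was the 1 of 7 members called, beside 1.95% of all genes and 1.08% in this direction, and the groups of 1.43% of all genes did not overlap in this direction. The difference was 1.71 in replicate 1, 1.42 in replicates 2 and 3, and 1.45 in replicates 4 and 5. With replicates 1 to 3 only it was 1.51 and no longer called (adjusted p = 0.151). Markers of other states moved in the same comparison. Of 12 pluripotency genes, 12 were above 0 in KO EBs and 2 were called higher (median 1.21, against -0.03 for all genes), and their summed level was 2058 to 3875 TPM (KO) and 1964 to 2820 TPM (control). Of 10 mesoderm and endoderm genes, 3 were called higher (median 1.14), with summed levels of 17.3 to 42.2 TPM (KO) and 8.59 to 15.4 TPM (control). None of 9 early EB genes was called (median -0.56), with summed levels of 513 to 2293 TPM (KO) and 1245 to 3464 TPM (control). The part of these lists in the difference of *Olig2* was not tested.

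In ESCs, *Olig2* was higher in the KO by 0.92 ± 0.24, from 11.4 ± 2.95 (SD, n = 4) to 21.2 ± 3.73 TPM (SD, n = 5). The groups did not overlap, as for 2.10% of all genes in this direction, but the adjusted p was 0.104 (limma). No member was called in ESCs, beside 0.641% of all genes, and 1 had an unadjusted p under 0.05. With replicate as a block it was 0.91 (adjusted p = 3.51e-04), and it was called with median-of-ratios scaling as well (adjusted p = 0.0154). The summed level of the 15 fibroblast markers was 1369 to 3954 TPM in control and 1040 to 2684 TPM in KO ESCs. Their part in the *Olig2* difference was not tested.

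The KO effect on *Olig2* in EBs minus that in ESCs was 0.57 ± 0.33 and was not called (adjusted p = 0.986, limma). With the replicate block it was 0.58 (adjusted p = 0.0466). This fit takes 1 KO EB library as replicate 4, as its title says, while another label field numbers it 5. A block on the library series described in the next paragraph, chosen after seeing the data, holds both numbers together and gave 0.59 (adjusted p = 0.0270). None of the 7 members was called for this difference of effects, and none had an unadjusted p under 0.05, beside 0.00486% of all genes.

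For *Neurog3*, KO and control EBs stood in a different order in different library series (replicate 1, replicates 2 and 3, replicates 4 and 5). The series were read from identifiers in the headers of the deposited data. In replicates 1 to 3 the KO libraries (6.66 to 10.2 TPM) lay above the controls (2.21 to 4.14 TPM), whereas in replicates 4 and 5 the KO libraries (2.17 and 2.27 TPM) lay below them (6.95 and 7.22 TPM). Over all libraries the KO difference was 0.31 ± 0.55 (adjusted p = 0.954, limma). Within replicates 4 and 5 it was -1.63 (adjusted p = 0.0147), and in replicate 1 and in replicates 2 and 3 it was 1.53 and 1.65. The difference between the series was not tested. *Pcgf1* was 0.627 to 2.77 TPM in the 10 KO libraries and 7.30 to 16.6 TPM in the 9 control libraries.

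*Neurod1* was lower in KO than in control EBs in every series, by 1.00 ± 0.62 over all libraries, and this was not called (adjusted p = 0.633). The difference was -0.48 in replicate 1, -0.35 in replicates 2 and 3, and -1.90 in replicates 4 and 5 (adjusted p = 0.00889 within the last series alone). *Neurog1* was 0.346, 1.39, 0.341, 0.857 and 1.28 TPM in control EBs and 0.103, 0.801, 0.572, 0.118 and 0.332 TPM in KO EBs, a difference of -1.01 ± 0.63 (adjusted p = 0.630), or -0.40 with 1 added in place of 0.1. The groups overlapped. In ESCs its highest level was 1.02 TPM (control) and 0.278 TPM (KO).

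Other genes of the pathway were counted in the Pcgf1 line by list. The E protein partners *Tcf3*, *Tcf4* and *Tcf12* gave no call among 3 in any comparison of this line. Between control ESCs and EBs, where 24.9% of all genes were called and 11.5% were higher, 2 of 15 Notch pathway genes rose and 1 fell, and the ligand genes *Dll3* and *Dll1* rose by 3.24 ± 0.41 and 1.44 ± 0.49. Of 11 Id and Hes/Hey genes, 2 rose and 3 fell, with *Hes6* higher by 3.01 ± 0.28 and *Id4* lower by 2.30 ± 0.38. Of 20 neuronal differentiation genes, 5 rose and 2 fell, led by *Insm1*, an endocrine and neuronal zinc finger gene, at 4.21 ± 0.67. Of 15 neural progenitor genes, 5 rose and 1 fell, led by *Sox3* at 4.55 ± 0.56. No list was tested against the other genes, and the share of Notch genes called was not above that of all genes.

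Between KO and control EBs, *Hey1* fell by 1.24 ± 0.25 as the 1 called gene of the Id and Hes/Hey list, and 1 of 15 Notch genes rose and 1 fell. In ESCs, *Dll1* fell by 2.30 ± 0.49 (adjusted p = 0.0385) and *Lfng*, which modifies Notch receptors, fell by 1.67 ± 0.37 (adjusted p = 0.0423). *Olig1*, a bHLH gene 41.1 kb from *Olig2* in mm9, did not follow *Olig2* in the KO. Its mean was 17.7 ± 4.71 (SD, n = 4) and 19.3 ± 3.48 TPM (SD, n = 5) in control and KO ESCs, and 22.6 ± 3.46 and 23.3 ± 4.84 TPM (SD, n = 5 each) in control and KO EBs. The KO difference of *Olig1* in EBs was 0.03 ± 0.20 (adjusted p = 1.00, limma).

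In the RING1 point mutant line, whose question is what loss of the H2A-ubiquitinating activity does to the members, *Neurog1* and *Olig2* were higher in mutant cells. *Neurog1* was listed at 0 in both control ESC libraries and was 1.26 and 1.15 TPM in mutant ESCs. It was 0 and 0.112 TPM in control EBs and 0.586 and 1.10 TPM in mutant EBs. Mutant and control libraries did not overlap at either stage. The differences were called in ESCs (adjusted p = 0.0207) and in EBs (2.64 ± 0.51, adjusted p = 0.0348, limma). With 1 added in place of 0.1, the EB difference was 0.79 (adjusted p = 0.0356). No fold is given for ESCs, since the controls were at 0.

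*Olig2* was 0.068 and 0 TPM in control ESCs and 0.677 and 0.903 TPM in mutant ESCs. It was 0.0623 and 0.153 TPM in control EBs and 0.629 and 0.873 TPM in mutant EBs. Mutant libraries were above control libraries at both stages. The difference was 2.77 ± 0.47 in ESCs (adjusted p = 0.0315) and 2.06 ± 0.47 in EBs (adjusted p = 0.0549, limma), where the replicate block gave 2.06 and an adjusted p of 0.0423. With 1 added in place of 0.1 it was 0.79 (adjusted p = 0.0294) and 0.66 (adjusted p = 0.0320), so that its size rests on the added value.

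*Atoh1* was 0.238 and 0 TPM in control ESCs, 0.790 and 0.421 TPM in mutant ESCs, 0.436 and 0.178 TPM in control EBs and 0.934 and 1.38 TPM in mutant EBs. It was thus above control at both stages, without overlap. The differences were 1.89 ± 0.68 (adjusted p = 0.209) and 1.68 ± 0.68 (adjusted p = 0.219), or 0.52 and 0.72 with 1 added. *Neurog2* was listed at 0 in both control ESCs, and was 0.338 and 0.132 TPM in mutant ESCs, 0 and 0.0839 TPM in control EBs and 0.377 and 0.137 TPM in mutant EBs. Its groups did not overlap either, and the difference in EBs was 1.31 ± 0.54 (adjusted p = 0.223), or 0.27 with 1 added.

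**Figure D2:**
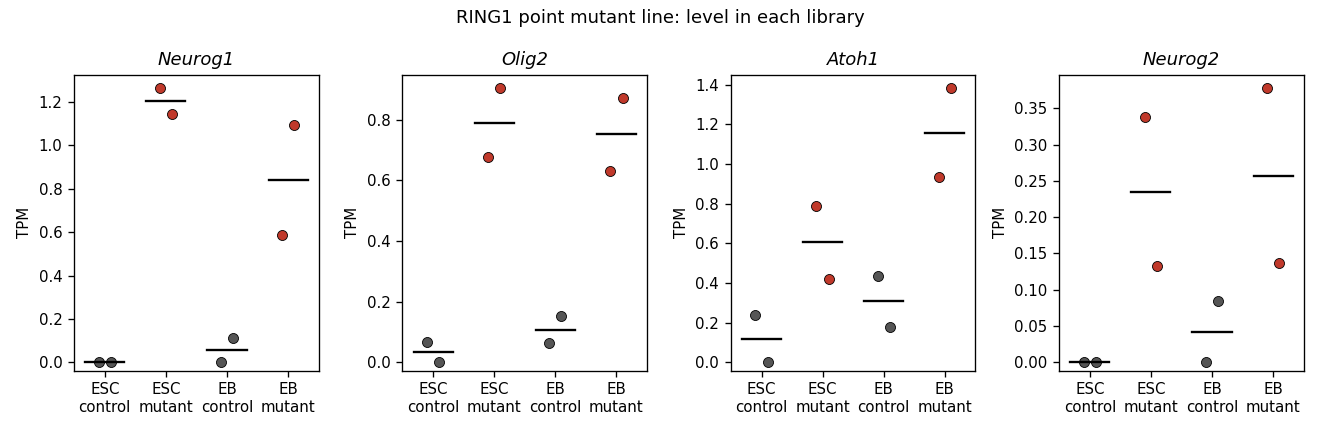
*Neurog1*, *Olig2*, *Atoh1* and *Neurog2* in each library of the RING1 point mutant line, in TPM, with 2 libraries per group. Gray points are control and red points mutant, and lines are group means; mutant libraries lie above control libraries at both stages, at levels of at most 1.38 TPM.

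Of the 7 members, 2 were called in mutant against control ESCs, beside 2.54% of all genes in either direction and 2.34% higher. In EBs 1 was called, beside 4.53% in either direction and 3.76% higher. The groups of 4 members did not overlap at each stage, as for 32.5% of all genes in this direction in ESCs and 30.1% in EBs. The median difference of the members in EBs was 1.37 and that of all genes 0.10; no median is given for ESCs, where it would fall on a gene whose controls were at 0. The difference of the mutant effect between stages was not called for any member (adjusted p = 1.00 for all, limma), with no unadjusted p under 0.05, beside 0.00986% of all genes. It was -0.71 ± 0.67 for *Olig2*, or -0.13 with 1 added.

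With 2 libraries per group these calls were not stable. Leaving out any 1 library of the groups compared left no member called in ESCs or in EBs. Fitting only the groups compared did the same, with adjusted p values of 0.0897 for *Neurog1* and 0.105 for *Olig2* in ESCs and 0.107 for *Neurog1* in EBs.

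*Neurog3* and *Neurod1* did not follow the mutation in this line. *Neurog3* was 0.860 and 0.407 TPM in control ESCs, 0.682 and 0.476 TPM in mutant ESCs, 1.38 and 1.69 TPM in control EBs and 1.18 and 2.17 TPM in mutant EBs. EBs were above ESCs in both genotypes, by 1.22 ± 0.51 (adjusted p = 0.232) and 1.34 ± 0.51 (adjusted p = 0.470, limma). *Neurod1* ranged from 0.820 to 4.18 TPM, and replicate 1 and 2 of control ESCs (4.18 and 0.941 TPM) differed more than the group means did. *Olig3* was at or under 0.588 TPM. No member was called between the stages in control cells, beside 4.73% of all genes, or in mutant cells, beside 0.133%, with 1 at an unadjusted p under 0.05 in each.

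Of the 15 neural progenitor genes, 6 were higher in mutant ESCs and 6 in mutant EBs, with none lower. *Zic1*, a gene of the dorsal neural tube, was higher by 4.10 ± 0.58 in ESCs and 3.64 ± 0.58 in EBs, and *Nes*, which encodes nestin, by 2.09 ± 0.29 and 2.61 ± 0.29. The list had a median difference of 1.76 in ESCs and 1.63 in EBs. Of 20 neuronal differentiation genes, 1 was higher and 1 lower in ESCs, and 1 was higher in EBs: *Ebf3*, at 3.15 ± 0.53 and 2.98 ± 0.53. Of the 15 Notch pathway genes and 12 other neural bHLH genes tested, none was called. Fibroblast markers also moved, with 2 of 15 higher and 1 lower in mutant ESCs and 6 of 15 higher in mutant EBs. Their summed level was 440.1 to 440.5 TPM (mutant) and 468 to 553 TPM (control) in ESCs. In EBs it was 282 to 439 TPM (mutant) and 234 to 323 TPM (control). Of 10 mesoderm and endoderm genes, 10 were above 0 and 4 were called higher at each stage, with a median of 1.96 in ESCs and 1.83 in EBs. Their summed level was 43.2 to 46.3 TPM (mutant) and 17.02 to 19.5 TPM (control) in ESCs, and 52.4 to 56.2 TPM and 16.6 to 19.6 TPM in EBs. Of 9 early EB genes, 4 were called lower in mutant EBs (median -1.80) and none in mutant ESCs (median 0.50). Their summed level in EBs was 196 to 224 TPM (mutant) and 569 to 861 TPM (control). Of 12 pluripotency genes, 3 were called higher in mutant EBs (median 0.60) and 1 lower in mutant ESCs (median -0.34). The part of these lists in the members' differences was not tested.

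**Figure D3:**
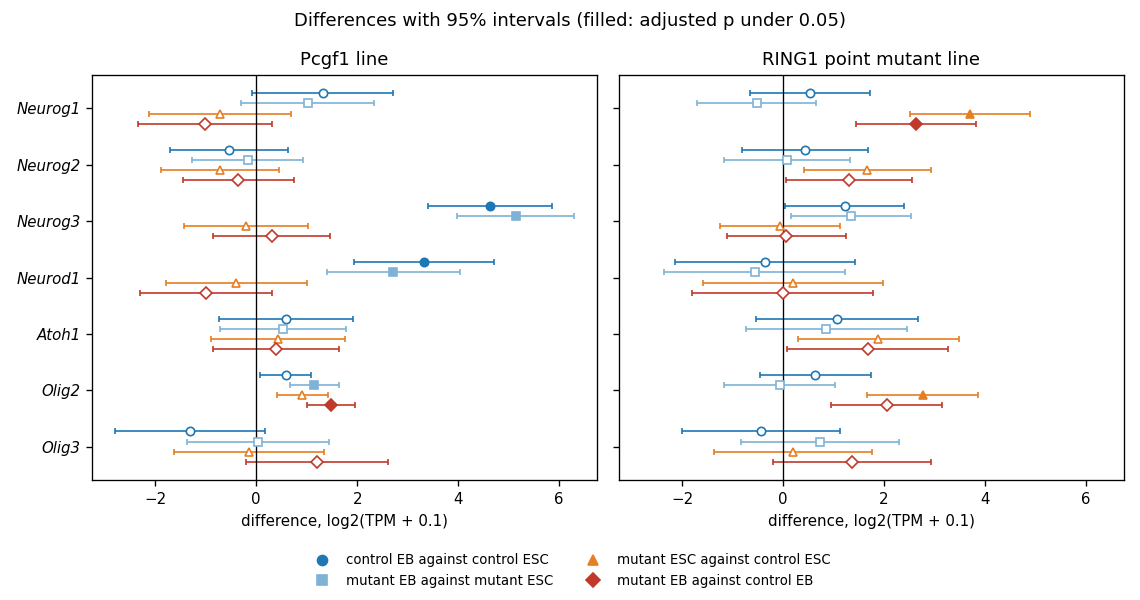
Differences of the 7 members on the log2(TPM + 0.1) scale with 95% intervals in 4 comparisons each of the Pcgf1 line (left) and the RING1 point mutant line (right). Filled symbols passed an adjusted p under 0.05; the stage differences of *Neurog3* and *Neurod1* stand out on the left, and the mutant differences of *Neurog1* and *Olig2* on the right, where *Neurog1* was at 0 in control ESCs and its plotted size depends on the added 0.1.

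In the Ring1A/B line, the libraries labeled mutant ESC carried control EB in their deposited names, and those labeled control EB carried mutant ESC. Labels and names agreed for the libraries labeled control ESC and mutant EB. The comparison of these groups is thus the pairwise one that does not depend on the choice. It combines stage and genotype. *Neurog1* was 0.175 and 0.0998 TPM in control ESCs and 22.7 and 23.6 TPM in mutant EBs. The other libraries lay between, at 2.44 and 2.03 TPM in those labeled mutant ESC and 1.93 and 3.31 TPM in those labeled control EB. The difference between mutant EBs and control ESCs was 6.63 ± 0.29 (adjusted p = 2.13e-06, limma).

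*Atoh1* was 0 and 0.0795 TPM in control ESCs and 2.87 and 2.92 TPM in mutant EBs, a difference of 4.48 ± 0.45 (adjusted p = 1.15e-04). It was 0 and 0.0951 TPM in the libraries labeled mutant ESC and 0.566 and 0.744 TPM in those labeled control EB. Only the libraries labeled mutant EB exceeded 1 TPM. *Neurog3* was 0.284 and 0.216 TPM in control ESCs and 2.87 and 1.64 TPM in mutant EBs, with 1.66 and 2.07 TPM in the libraries labeled mutant ESC and 0.220 and 0.0918 TPM in those labeled control EB.

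*Olig2* was 10.9 and 10.6 TPM in control ESCs and 21.6 and 22.4 TPM in mutant EBs, a difference of 1.02 ± 0.072 (adjusted p = 1.89e-05, limma). It was 11.004 and 10.6 TPM in the libraries labeled mutant ESC and 7.77 and 8.18 TPM in those labeled control EB. *Neurod1* rose by 1.57 ± 0.27 and *Neurog3* by 2.71 ± 0.40 between control ESCs and mutant EBs. *Olig3* (1.36 ± 0.54, adjusted p = 0.0689) and *Neurog2* (1.09 ± 0.47, adjusted p = 0.0886) were not called. With 1 added in place of 0.1, the differences were 4.41 for *Neurog1*, 1.91 for *Atoh1*, 1.35 for *Neurog3*, 1.01 for *Neurod1* and 0.97 for *Olig2*, all still called, and 0.65 for *Olig3* (then called, adjusted p = 0.0100). Thus 5 of 7 members were called, all higher, beside 54.9% of all genes in either direction and 36.6% higher.

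By label alone, 5 members were called between EBs and ESCs in control cells, 4 higher and *Olig2* lower (43.2% of all genes called), and 4 in mutant cells, all higher (56.5%). Between mutant and control, 3 were called in ESCs (48.8%) and 4 in EBs (33.3%). By deposited name, these stage comparisons are mutant against control, in ESCs and in EBs. The genotype comparisons are then EB against ESC, in control and in mutant cells. The summed level of 9 early EB genes was 1162 to 1217 TPM in libraries labeled mutant ESC. It was 164 to 171 TPM in those labeled control EB, so the directions above hold for the labels only. For the difference of effects, which is the same by label and by name, 2 were called (34.8%). *Rnf2* was 62.9 to 95.1 TPM in the 8 libraries of this line.

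**Figure D4:**
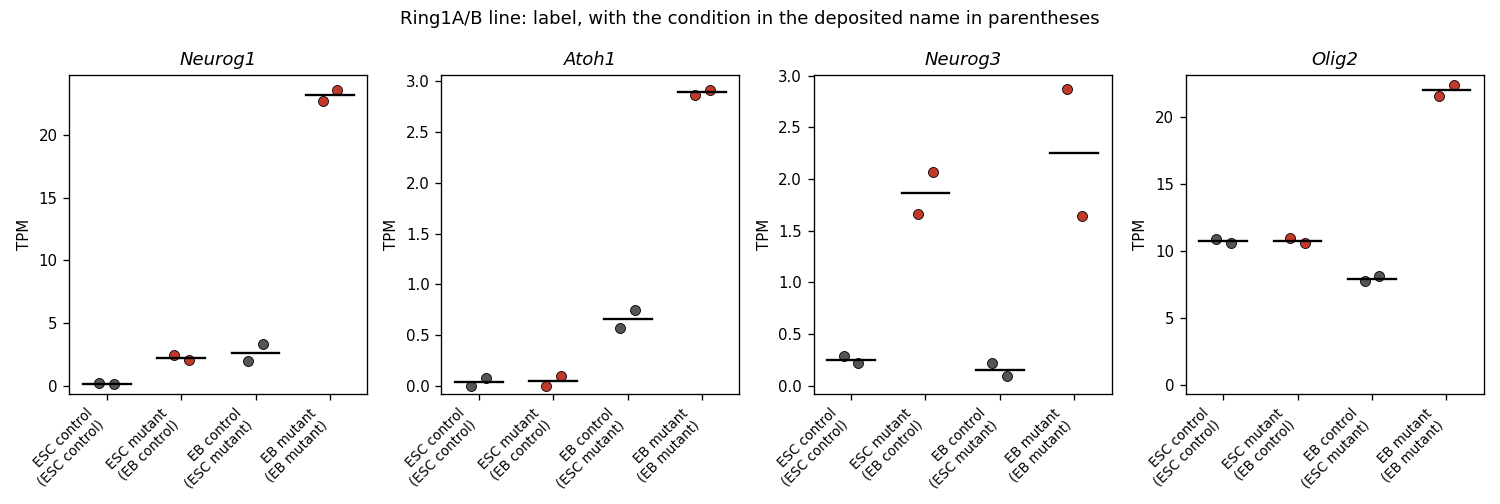
*Neurog1*, *Atoh1*, *Neurog3* and *Olig2* in each library of the Ring1A/B line, in TPM, with 2 libraries per group. The axis gives the label and, in parentheses, the condition in the deposited name; *Neurog1* reaches 22.7 and 23.6 TPM in mutant EBs and at most 3.31 TPM elsewhere.

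In the Pcgf2/4, Pcgf3/5 and Pcgf6 lines no member was called in any of the 5 comparisons by label, beside at most 0.0601% of all genes (0.0401%, 0.0301% or 0 in the other comparisons). In the Pcgf2/4 and Pcgf6 lines each labeled group held 1 library named ESC and 1 named EB. Differences between named stages were therefore spread within groups. Labeled groups of the Pcgf3/5 line also held libraries of different names. The absence of calls thus cannot show whether loss of these PCGF proteins changed the members. The largest number of members with an unadjusted p under 0.05 was 3. Control EBs against ESCs of the Pcgf3/5 line were the exception among the alternatives. There 3 members were called when only these groups were fitted, 2 with the replicate block in that fit and 4 with the numbers crossed. The last pair of fits was chosen after seeing the data. The shares of all genes called in these fits are not given, so these counts cannot be read as a result about the members. Both groups held libraries named for the labeled stage, with 1 of 2 in each named mutant. *Neurog3* was 0.406 and 0.442 TPM in these ESCs and 3.30 and 2.32 TPM in these EBs, *Neurod1* was 0.794 and 0.740 against 3.01 and 2.05 TPM, and *Neurog1* 0.125 and 0 against 1.11 and 1.00 TPM. These genes were higher without overlap and *Olig3* was lower without overlap, as for 61.7% of all genes in either direction. The libraries themselves differed widely. *Neurod1* in the Pcgf2/4 line was 4.37, 4.09, 9.24 and 8.77 TPM in the libraries named ESC, and 22.9, 20.2, 32.6 and 33.2 TPM in those named EB. These were labeled, in that order, control ESC 1, mutant ESC 1, control EB 1 and mutant EB 1, and control ESC 2, mutant ESC 2, control EB 2 and mutant EB 2. The low values thus all fell in replicate 1 and the high values in replicate 2, whatever the labeled stage.

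*Neurog3* in the Pcgf3/5 line was 0.239, 0.442, 0.406 and 0.182 TPM in the libraries named ESC, which were labeled mutant ESC 1, control ESC 2, control ESC 1 and mutant EB 2. It was 3.30, 2.65, 2.22 and 2.32 TPM in those named EB, labeled control EB 1, mutant ESC 2, mutant EB 1 and control EB 2. *Neurog1* in the Pcgf6 line was 7.56 and 7.09 TPM in the libraries labeled control EB 1 and mutant EB 1, both named mutant ESC, and at most 1.13 TPM in the other 6. *Pcgf6* itself was 34.7 to 46.3 TPM in the 4 libraries named mutant and 67.1 to 105 TPM in those named control, while by label the ranges overlapped. These values are a description and no comparison by name was tested.

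*Olig2* differed widely in level between lines. It ranged from 6.97 to 62.0 TPM in the 19 libraries of the Pcgf1 line, from 7.77 to 22.4 in the Ring1A/B line, from 18.6 to 42.8 in the Pcgf2/4 line and from 8.38 to 41.5 in the Pcgf6 line. In the Pcgf3/5 line it was at most 0.0493 TPM and listed at 0 in 5 of 8 libraries, and in the RING1 point mutant line it was at most 0.903 TPM. The latter lines lay below all libraries of the former. Its neighbor *Olig1* was likewise low there, with group means of 0.299 to 1.30 TPM in the RING1 point mutant line and 0.161 to 0.512 TPM in the Pcgf3/5 line, against 11.9 to 66.6 TPM in the other lines. In the RING1 point mutant line, *Olig1* was 0.381 and 0.216 TPM in control and 1.18 and 1.42 TPM in mutant ESCs. In EBs it was 0.490 and 0.514 TPM (control) and 1.03 and 1.12 TPM (mutant). Groups did not overlap at either stage, as for 32.5% (ESCs) and 30.1% (EBs) of all genes in this direction.

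**Figure D5:**
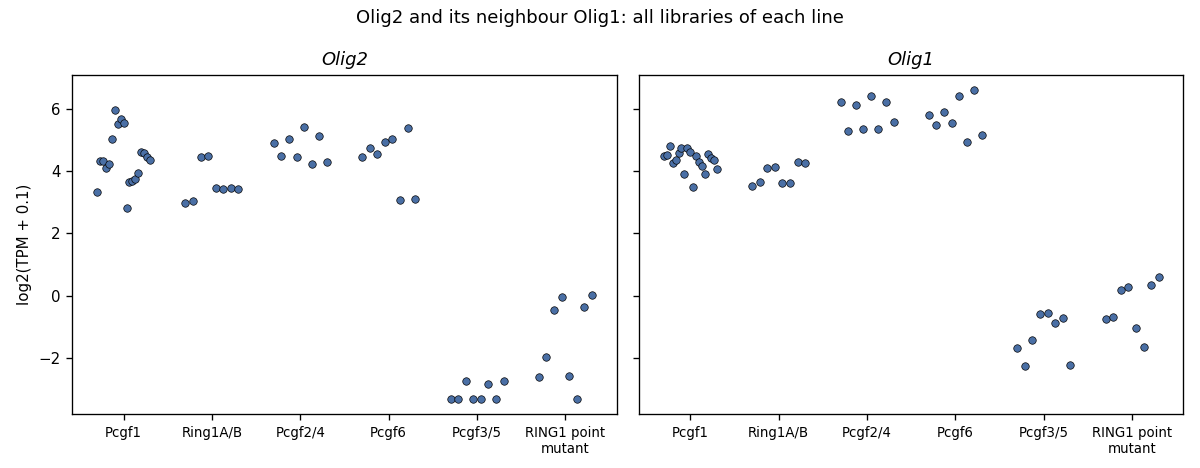
*Olig2* (left) and *Olig1* (right) on the log2(TPM + 0.1) scale in every library of each line, 1 point per library. *Olig2* is at most 0.0493 TPM in the Pcgf3/5 line and 0.903 TPM in the RING1 point mutant line, and at least 6.97 TPM in each of the other lines.

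The order of the members by their median over 59 libraries was *Olig2* at 15.3 TPM, *Neurod1* at 2.71, *Neurog3* at 0.673, *Neurog1* at 0.478, *Olig3* at 0.165, *Atoh1* at 0.159 and *Neurog2* at 0.0743 TPM. The ranges of neighbors in this order overlapped in every case. *Neurod1* was above 0 in all 59 libraries, *Neurog3* and *Olig2* in 53, and *Neurog2* in 37, without reaching 1 TPM in any.

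As a description over the 59 libraries, with the mean of each line subtracted from log2(TPM + 0.1), *Neurog3* and *Neurod1* had a Pearson r of 0.77. Libraries share lines, stages and genotypes, so these are not independent points. Among 14887 genes, those most like *Neurog3* were *Tcerg1l* (r = 0.92), *Sema3e* (0.91) and *Rarg* (0.91), and those most like *Neurod1* were *Ept1* (0.91), *Fam49a* (0.91) and *Inpp5f* (0.89). Those most like *Neurog1* were *Foxa1* (0.79), *Hoxb2* (0.75) and *Muc19* (0.75), and those most like *Olig2* were *Homer2* (0.78), *Npr1* (0.76) and *Tmem200b* (0.76). For *Atoh1*, *Neurog2* and *Olig3* the leading genes were *Neto2* (0.71), *Mei1* (0.62) and *Dmbx1* (0.57).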

How the data were processed

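The data were poly(A) RNA-seq libraries of ESCs and EBs. The authors mapped single-end reads to mm9 with STAR 2.5.2b, counted reads on exons and deposited TPM values, 1 table per library. How counts became TPM is not given in the sources used here. TPM keeps no read number, so the depth of each library is unknown and zeros give no limit. Between 6039 and 9139 of 24391 genes were at 0 per library. Of 1711 pairs of libraries, 0 held identical values.

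Groups came from sample labels. Each line was fitted by limma 3.58.1 (R 4.3.3, with trend) on log2(TPM + 0.1) over its 4 groups, with genes above 0 TPM in at least 1 library (19250 to 20594 per line). P-values are two-sided and Benjamini-Hochberg adjusted over all genes tested. The script was tested on simulated data. Nothing states that replicates came from separate cultures, so p-values measure only the spread between these libraries, which may be technical. In the Pcgf1 line, same-numbered libraries deviated together from their group means (r of 0.32 to 0.65 over 27 pairs and 13400 genes), so the replicate number was tried as a block.

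The members and gene lists were chosen with earlier results of these data known. Named genes were the members and, per list and comparison, up to 4 called genes with the largest change among those averaging 1 TPM or more in a group, of which some are given, besides E proteins, *Olig1*, *Rnf2*, *Pcgf6* and *Dnmt3b*, which were named after their values were seen. The 3 genes most like each member were taken among genes with a mean of at least 0.5 TPM. The result of 1 listed gene is not reported here. Promoter windows were read from a RefSeq table. Alternatives were a pseudocount of 1, a mean of at least 0.5 TPM, median-of-ratios scaling, the replicate block, only the groups compared, and leaving out each library. Python 3.11.15 with matplotlib 3.10.9 drew the figures.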

Additional observations from a re-analysis of the deposited data

Results flagged for a closer look

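In the Pcgf1 line, 4 of 28 groups of 4 or 5 libraries held a library far from the others by Dixon's test. Its chance rate of about 1 in 20 does not hold for groups with several values at 0. In control ESCs, replicate 1 was low for *Olig2* (6.97 TPM) and replicate 4 high for *Atoh1* (0.116 TPM). In KO ESCs, replicate 3 was high for *Neurog2* (0.495 TPM) and for *Olig3* (1.06 TPM). For *Atoh1* and *Neurog2* all other libraries of the group were at 0, so that any level above 0 would be flagged.

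In the Ring1A/B line, by label, the mutant effect differed between EBs and ESCs for *Olig2* (1.45, adjusted p = 6.49e-05, limma) and for *Olig3* (2.65, adjusted p = 0.0322). Of the 4 groups in this contrast, 2 carried another condition in their deposited names. Their names were exchanged and both enter with equal sign, so the contrast is the same by label and by name.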

How the results depend on the processing

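Depth is unknown, and levels near 0.1 TPM depend on the pseudocount. Members called under alternative settings are counted here without the share of all genes called, so these counts cannot be set against it. In the Pcgf1 line, the replicate block and a library series block each gave 1 member called between KO and control ESCs and 1 for the difference of effects, and median-of-ratios scaling gave 1 in ESCs, where 0 were called otherwise. Replicates 1 to 3 only gave 0 in EBs. Replicates 4 and 5 only left 1 control ESC library, so no count of members called is given for them. 3 values turned: *Neurog3* in KO against control EBs was -1.63 and its difference of effects -1.34 within replicates 4 and 5, and the difference of effects of *Neurod1* was 0.36 within replicates 1 to 3. The cause was not tested. These splits and the series block were chosen after seeing the data.

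In the RING1 point mutant line, EBs gave 2 calls with a pseudocount of 1 or the replicate block, and 0 with a mean of at least 0.5 TPM or only the groups compared. ESCs gave 1 and 0 under the latter settings, and leaving out a library of the groups compared gave 0 in both. In the Ring1A/B line by label, the difference of effects gave 4 calls with a pseudocount of 1 and 1 to 3 when a library was left out, and control EBs against ESCs gave 3 to 5. In the Pcgf3/5 line, control EBs against ESCs gave 3 calls with only the groups compared, 2 with the replicate block and 4 with the numbers crossed. Crossing was chosen after seeing the data. Same-numbered libraries of these groups had an r of -0.16. The lowest r of this line, -0.79, was between mutant ESCs and mutant EBs, whose replicate 2 libraries were named for the other stage. The other 316 alternative counts of members called stayed within 1.5 times, where 0 against 0 was taken as unchanged. They include counts of the Pcgf2/4, Pcgf3/5 and Pcgf6 lines, whose main counts were all 0. Over all members, lines and comparisons, 228 of 2342 alternative differences changed sign, 226 of them called under neither setting.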
